A study of Mus musculus with 11 samples.

Results

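The guanylate-binding protein (GBP) family was followed in whole skin of neonatal mice in which Tregs had been targeted early, late or throughout the window from P6 to P12 (postnatal days). The family was taken as the 9 genes Gbp2, Gbp3, Gbp4, Gbp5, Gbp6, Gbp7, Gbp8, Gbp9 and Gbp10, chosen by gene name from a table of 49315 genes, and all 9 passed the filter on low counts that left 18375 genes for testing. Bulk RNA-sequencing had been performed on 11 libraries, each from 1 mouse and each with reads counted on exons. All mice, controls included, carried Foxp3-DTR, an allele in which the diphtheria toxin (DT) receptor and GFP are under control of Foxp3, the gene that defines Tregs, so that DT ablates them. Control mice (n = 2) received PBS. ΔETreg mice (n = 3) received 2 doses of DT on postnatal day (P) 6 and P8 and were harvested on P9. ΔLTreg mice (n = 3) received 2 doses on P10 and P12 and were harvested on P13. ΔTreg mice (n = 3) received 4 doses from P6 to P12 and were also harvested on P13. Each dose was 30 ng per g. The study describes its controls as matched for age, but the day on which each control mouse was harvested is not in the labels. The same 2 controls served here in every comparison with control, so age could not be matched mouse by mouse and cannot be told apart from treatment there, or in any comparison with the ΔETreg group, which was 4 days younger than both other DT groups. No group of DT-treated mice lacking the allele was analysed here.

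Total counts ranged from 23377571 to 34159435 per library, with 25075547 to 29104226 in the controls. Both sexes were present in each group, as read from Xist and Ddx3y, with 1 female and 1 male among the controls. Foxp3 itself was near the detection limit of whole skin, with 20 and 14 counts in the control libraries and 9 to 23 counts in the 9 libraries of DT-treated mice, and did not pass the test between ΔTreg and control (log2 fold change −0.31 ± 0.314 SE, edgeR adjusted p = 0.546), so that Foxp3 RNA did not check the depletion here. The study itself reports efficient loss of skin Tregs by flow cytometry, on P9 after the early doses and on P13 after the late doses. Markers of keratinocytes, the main cells of the epidermis, summed to 11000 to 15300 CPM (counts scaled to library size) across the libraries. Whole skin mixes many cell types, and a change in the number of cells that carry a GBP transcript cannot be told apart from a change in transcript per cell.

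GBPs are large GTPases that cells make when they sense interferons, above all interferon-γ. They assemble on the membranes of vacuoles that hold parasites and on bacteria, open these to further attack, and help to set off inflammasomes that sense bacterial lipopolysaccharide or DNA. Their genes are classic targets of interferon signalling, whose transcription factors bind the interferon-γ-activated site (GAS) and the interferon-stimulated response element (ISRE), and in skin both keratinocytes and infiltrating leucocytes can express them.

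The mouse genes lie in a cluster on each of 2 chromosomes (GRCm38, gene bounds from GENCODE M21). On the plus strand of chromosome 3 are Gbp5 (ENSMUSG00000105504, chr3:142493978-142522344), Gbp7 (ENSMUSG00000040253, chr3:142530342-142550149), Gbp3 (ENSMUSG00000028268, chr3:142560026-142573209) and Gbp2 (ENSMUSG00000028270, chr3:142620602-142638008). On the minus strand of chromosome 5 are Gbp8 (ENSMUSG00000034438, chr5:105014150-105139540), Gbp9 (ENSMUSG00000029298, chr5:105077630-105139539), Gbp4 (ENSMUSG00000079363, chr5:105115767-105139586), Gbp10 (ENSMUSG00000105096, chr5:105215699-105239533) and Gbp6 (ENSMUSG00000104713, chr5:105270702-105293698). The copies are not equally easy to count apart. Coding sequences of Gbp6 and Gbp10, both 1833 bases long, were 98.4% identical. Of the 75-base windows of Gbp6 exons 67.3%, and of those of Gbp10 77.8%, also occurred in another gene. Part of this is the overlapping gene Gm43302, which shares 1726 exon bases with Gbp6 and 1792 with Gbp10. The study's reads were paired and longer than these windows, so the percentages can overstate how many fragments are ambiguous. Only uniquely assigned reads were counted, so the separate levels of Gbp6 and Gbp10 are uncertain and may be understated. For Gbp7 the share of such windows was 11.3%, for Gbp8 8.04%, and for the other 5 genes it ran from 0.578% (Gbp5) to 3.61% (Gbp9).

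Because the family is known for its interferon elements, the promoter windows of the chromosome 3 members are shown. RefSeq start sites of GRCm38.p6 were at hand for 4 of the 9 members (Gbp2, Gbp3, Gbp5 and Gbp7), each as a window of 300 bases that ends 50 bases after the start. The ISRE was searched as GAAA, any 2 bases and GAAA, the GAS as TTC, any 3 bases and GAA, both on either strand. An ISRE match was present in a window of all 4, against 3.44% of 32851 RefSeq promoter windows, and in each it lay on the strand opposite to the gene, so that it reads TTTC, 2 further bases and TTTC along the gene. The 30-base stretches around these matches, with the match in capitals and on the plus strand, lie at chr3:142620594-142620623 (Gbp2), chr3:142559989-142560018 (Gbp3), chr3:142496759-142496788 (Gbp5) and chr3:142530273-142530302 (Gbp7).
Gbp2: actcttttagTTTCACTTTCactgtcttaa
Gbp3: caggacacagTTTCAGTTTCtatttcccag
Gbp5: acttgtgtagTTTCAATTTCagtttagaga
Gbp7: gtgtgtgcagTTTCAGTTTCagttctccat

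Counted from the RefSeq start, the matches ended 50 bases upstream in Gbp2, 36 bases upstream in Gbp3, 44 bases upstream in Gbp7 and 156 bases upstream in Gbp5. These starts differ from the GENCODE gene bounds given above. The Gbp2 match and the whole Gbp5 window lie inside those bounds. Gbp3 held a further match that overlapped the first and ended 30 bases upstream, and a second annotated start of Gbp3 had no match in its window. GAS matches were found in Gbp5 and Gbp7, 2 in each, against 8.3% of all windows. The upstream stretches of these 2 genes are shown because they hold both elements, with ISRE and GAS matches in capitals, for Gbp5 over chr3:142496684-142496899 and for Gbp7 over chr3:142530086-142530335.
Gbp5: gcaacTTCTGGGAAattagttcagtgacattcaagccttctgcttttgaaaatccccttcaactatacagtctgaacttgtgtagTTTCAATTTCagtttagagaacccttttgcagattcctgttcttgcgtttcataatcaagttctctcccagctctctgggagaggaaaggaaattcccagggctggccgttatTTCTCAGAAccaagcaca
Gbp7: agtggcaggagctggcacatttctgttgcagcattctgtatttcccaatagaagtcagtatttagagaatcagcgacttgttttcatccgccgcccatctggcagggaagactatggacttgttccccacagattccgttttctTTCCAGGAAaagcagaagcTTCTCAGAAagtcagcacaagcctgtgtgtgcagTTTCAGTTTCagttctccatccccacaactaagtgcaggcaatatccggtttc

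In Gbp5, the run TTTCAATTTC is the ISRE and the other capitals are the GAS matches, and in Gbp7 the ISRE is TTTCAGTTTC. A match of letters is a description of the window and does not show that a factor binds there.

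**Figure D1:**
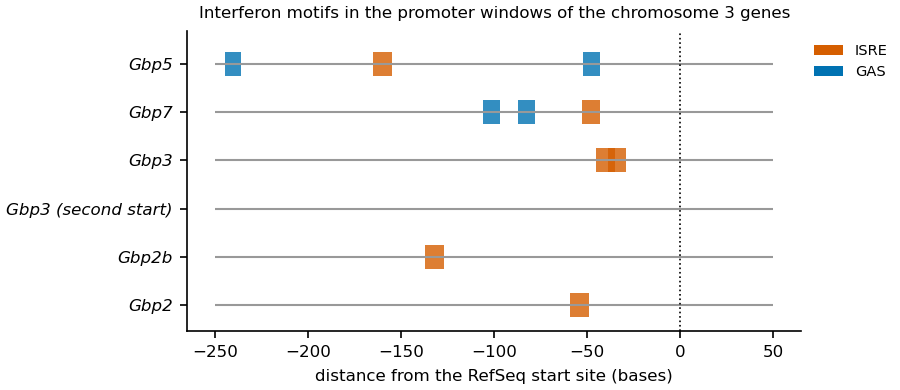
Positions of ISRE (orange) and GAS (blue) matches in the promoter windows of the chromosome 3 GBP genes, in bases from the RefSeq start site, which is the dotted line. Each grey line is 1 window of 300 bases; Gbp2b, a neighbouring GBP gene outside the 9, is drawn too, and the window of the second Gbp3 start holds no match.

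In ΔTreg skin every member of the family rose. Levels are given in CPM on TMM-scaled library sizes for each mouse, and changes as log2 fold changes ± SE. Adjusted p-values come from the quasi-likelihood test of edgeR, adjusted by Benjamini and Hochberg's method over all 18375 genes tested. Against control, 9 of 9 members were higher at an adjusted p under 0.05, where 12.1% of all genes tested were, and the median log2 fold change of the members was 4.85 against −0.01 for all genes. The 3 ΔTreg mice lay above both controls for all 9 members, as they did for 26.8% of all genes. Gains ran from 2.61 on the log2 scale for Gbp9 to 5.21 for Gbp8, with Gbp10, whose controls held almost no reads, beyond that range.

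**Figure D2:**
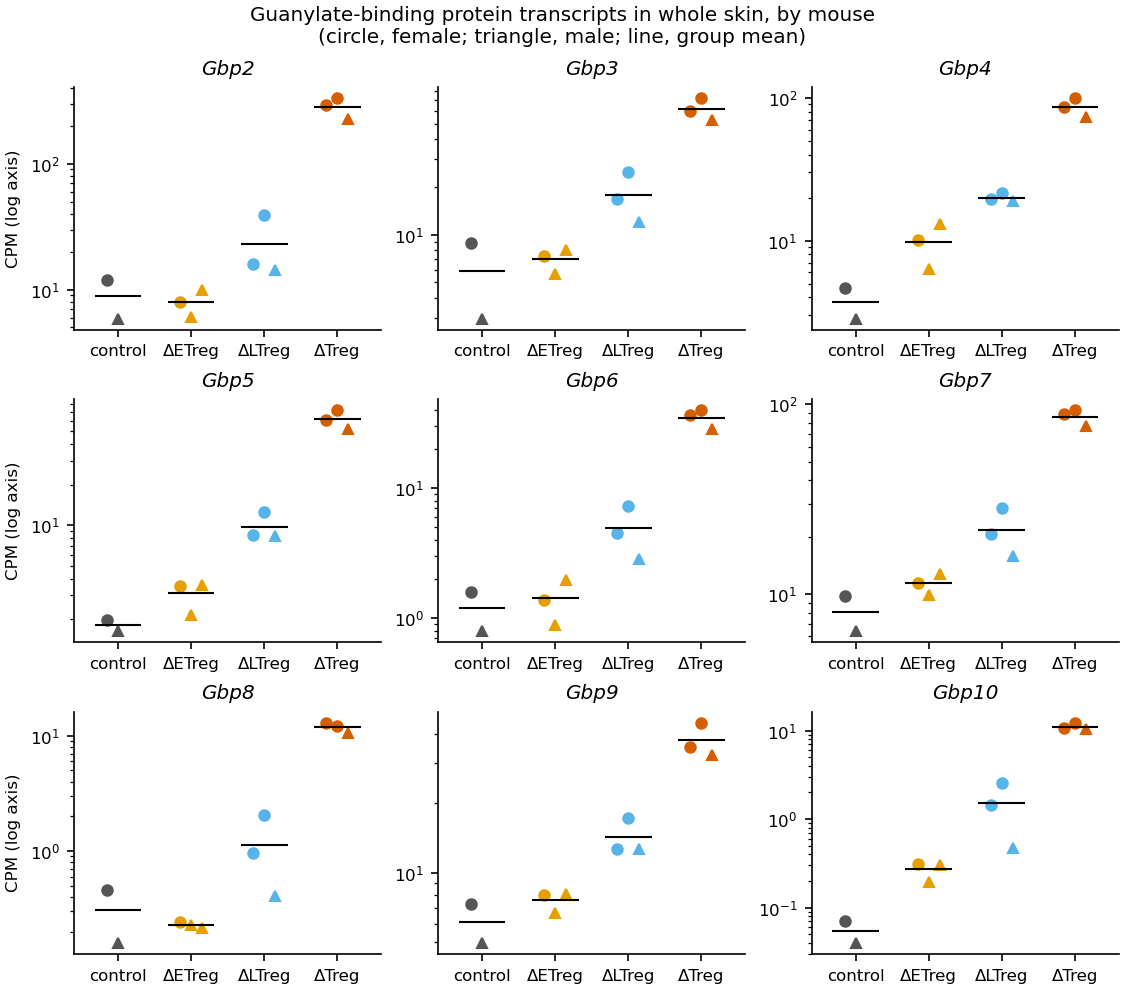
CPM of each GBP transcript (log axis) in each of the 11 mice, by group, with females as circles, males as triangles and the group mean as a line. For all 9 transcripts the 3 ΔTreg mice sit above every other mouse, and the 3 ΔLTreg mice sit above the 3 ΔETreg mice.

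Among the members known for work at the parasite vacuole and the inflammasome, Gbp2, which coats vacuoles of Toxoplasma, stood at 11.9 and 5.86 CPM in the controls and at 292, 331 and 225 CPM in ΔTreg mice. Its lowest ΔTreg mouse was far above the highest of all other mice, a ΔLTreg mouse at 39.1 CPM. Gbp2 rose 31.5-fold (log2 4.98 ± 0.488, edgeR adjusted p = 5.26e-05). Gbp5, which promotes assembly of the NLRP3 inflammasome and like Gbp2 carries a lipid tail that anchors it to membranes, went from 1.96 and 1.63 CPM in control to 60.9, 71.6 and 51.7 CPM in ΔTreg mice. The control mice differed little from each other, and the gain was 34-fold (log2 5.09 ± 0.283, edgeR adjusted p = 1.63e-06). Gbp7, which takes part in delivering the oxidase to phagosomes, stood at 9.81 and 6.41 CPM in control and at 89.5, 92.9 and 76.6 CPM in ΔTreg mice. It thus started from a higher level and rose 10.6-fold (log2 3.40 ± 0.249, edgeR adjusted p = 8.6e-06). Gbp3, the fourth chromosome 3 member, read 8.79 and 2.95 CPM in the controls, the widest relative gap between the 2 control mice among these 4 genes, and 60.3, 72.1 and 52.5 CPM in ΔTreg mice. Its gain was 10.4-fold (log2 3.37 ± 0.406, edgeR adjusted p = 0.000204). The size of that gain rested on which control was kept, with a log2 fold change of 4.38 without control mouse 1 and 2.80 without control mouse 2.

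On chromosome 5, Gbp4, which restrains the interferon regulator IRF7, stood at 4.62 and 2.83 CPM in control and at 85.6, 99.3 and 73.7 CPM in ΔTreg mice. This was a gain of 22.9-fold (log2 4.52 ± 0.297, edgeR adjusted p = 4.12e-06). Gbp9 had a control level close to that of Gbp7, at 7.28 and 4.94 CPM, and reached 35.2, 44.7 and 32.2 CPM in ΔTreg mice. Its 6.09-fold gain (log2 2.61 ± 0.211, edgeR adjusted p = 1.44e-05) was the lowest of the 9 estimates. Gbp6, which takes part in defence against bacteria inside cells, stood at 1.58 and 0.797 CPM in control and at 36.4, 39.7 and 28.8 CPM in ΔTreg mice. Its gain was 28.9-fold (log2 4.85 ± 0.432, edgeR adjusted p = 2.76e-05). The remaining members were close to silent without DT. Gbp8 read 0.455 and 0.159 CPM in control, which is 13 and 4 counts, and 13, 12.1 and 10.5 CPM in ΔTreg mice (log2 5.21 ± 0.532, edgeR adjusted p = 6.94e-05). Gbp10 had 2 and 1 counts in the controls and 249, 413 and 337 counts in ΔTreg mice, a ratio of 200 with a 95% interval from 68.2 to 971 that covers counting error only (edgeR adjusted p = 4.47e-05). Gbp10 stays above the members' median also at the lower end of that interval. Without control mouse 1, which had the higher level of each member, the log2 fold changes of Gbp2, Gbp6 and Gbp8 were 5.59, 5.44 and 6.18, and all 9 members passed without either control.

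ΔLTreg skin showed a smaller gain over control, in which age cannot be told apart from treatment. Against control, 7 of 9 members were higher in ΔLTreg skin, where 1.86% of all genes were, and the members' median log2 fold change was 1.78 against 0.00 for all genes. Each ΔLTreg mouse lay above both controls for 8 of the 9 members, as for 15% of all genes; in the ninth, Gbp8, a ΔLTreg mouse at 0.407 CPM lay between the controls. Apart from Gbp10, the greatest estimates were those of Gbp5 and Gbp4. Gbp5 read 8.4, 12.6 and 8.36 CPM in ΔLTreg mice and rose 5.38-fold (log2 2.43 ± 0.282, edgeR adjusted p = 0.00141). For Gbp4 the 3 ΔLTreg mice were close together, at 19.6, 21.6 and 18.8 CPM, and the gain was 5.3-fold (log2 2.41 ± 0.286, edgeR adjusted p = 0.0015). These 2 genes passed under all 12 alternative settings of this comparison, the left-out libraries included.

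Gbp7 read 20.7, 28.3 and 16 CPM in ΔLTreg mice and rose 2.65-fold (log2 1.40 ± 0.239, edgeR adjusted p = 0.00936). Gbp9 read 12.6, 17.2 and 12.7 CPM and rose 2.3-fold (log2 1.20 ± 0.207, edgeR adjusted p = 0.0101). Gbp6 read 4.56, 7.33 and 2.85 CPM and rose 4.02-fold (log2 2.01 ± 0.443, edgeR adjusted p = 0.0307). In all 3 genes the second ΔLTreg mouse was the highest. Gbp3 passed narrowly, with 16.8, 24.7 and 12 CPM and a gain of 2.99-fold (log2 1.58 ± 0.392, edgeR adjusted p = 0.0468). Its log2 fold change was 2.59 without control mouse 1 and 1.01 without control mouse 2, and the latter did not pass (edgeR adjusted p = 0.194). Gbp6 had a log2 fold change of 2.6 without control mouse 1 and did not pass (edgeR adjusted p = 0.0836). Gbp10 rose on few reads, with 49, 66 and 15 counts in ΔLTreg mice against 2 and 1, a ratio of 25.6 with a counting interval from 8.55 to 126 (edgeR adjusted p = 0.017). The 2 members that did not pass were Gbp2 and Gbp8. Gbp2 stood at 16.1, 39.1 and 14.2 CPM in ΔLTreg mice, with 1 mouse well above the other two (log2 1.35 ± 0.444, edgeR adjusted p = 0.116), and Gbp8 had a log2 fold change of 1.78 ± 0.625 (edgeR adjusted p = 0.138). The count rested in part on 1 control library: without control mouse 2, which had the lower level of each of the 9 members, 2 members passed, against 0.853% of all genes. With edgeR fitted to the libraries of these 2 groups only, 2 members passed as well, Gbp4 and Gbp5, against 0.257% of all genes.

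After early depletion no member passed. Against control, edgeR called 0 of 9 members in ΔETreg skin, where it called 0.00544% of all genes as higher. At an unadjusted edgeR p under 0.05, 2 members were higher (Gbp4 and Gbp5), against 2.56% of all genes. DESeq2 called 1 member, Gbp4 (log2 1.39, DESeq2 adjusted p = 0.0083), while edgeR with no filter on low counts called both Gbp4 and Gbp5. The shares of all genes that DESeq2 and the unfiltered fit called are not given here. The log2 fold change was above 0 for 7 of 9 members and for 46.6% of all genes, with a members' median of 0.30 against −0.01. Gbp4 stood at 10.1, 6.34 and 13 CPM in ΔETreg mice, so all 3 lay above both controls, and its log2 fold change was 1.37 ± 0.291 (edgeR adjusted p = 0.7). Gbp5 read 3.55, 2.14 and 3.6 CPM, also above both controls (log2 0.76 ± 0.308). Gbp7 at 9.89 to 12.8 CPM and Gbp10 at 6 to 9 counts were the other members whose groups did not overlap, which makes 4 of 9 against 9.35% of all genes. Gbp2 read 7.98, 6.01 and 9.98 CPM, inside the range of the controls (log2 −0.18 ± 0.464). In Gbp3, Gbp6, Gbp8 and Gbp9 the groups overlapped too, with log2 fold changes from −0.45 for Gbp8 to 0.30 for Gbp9.

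**Figure D3:**
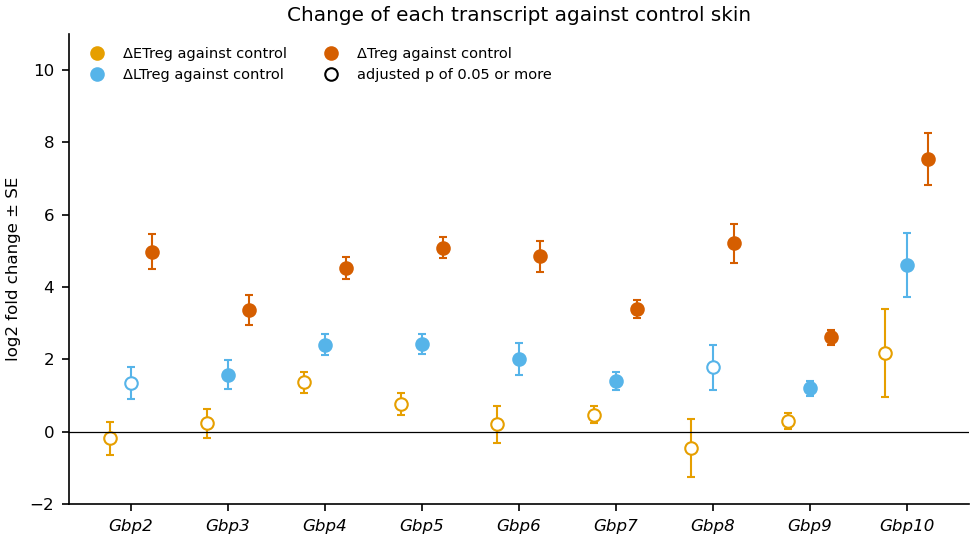
Log2 fold change against control of each GBP transcript in ΔETreg, ΔLTreg and ΔTreg skin, with bars for 1 SE and open symbols for an adjusted p of 0.05 or more. All 9 ΔTreg symbols and 7 of the ΔLTreg symbols are filled, none of the ΔETreg symbols is, and the same 2 control mice served in each of the comparisons.

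The comparison of ΔTreg with ΔLTreg skin needs no control and holds age fixed, since both were harvested on P13; the groups differ in the doses on P6 and P8. All 9 members were higher in ΔTreg skin, where 10.7% of all genes were, with a members' median of 2.66 on the log2 scale against 0.00 for all genes. No ΔLTreg mouse reached the lowest ΔTreg mouse in any member, as in 19.2% of all genes. The difference was 12.3-fold for Gbp2 (log2 3.62 ± 0.374, edgeR adjusted p = 8.32e-05), 10.8-fold for Gbp8 (3.43 ± 0.37), 7.57-fold for Gbp10 (2.92 ± 0.368) and 7.19-fold for Gbp6 (2.85 ± 0.306). It was 6.31-fold for Gbp5 (2.66 ± 0.196, edgeR adjusted p = 9.17e-06) and 4.32-fold for Gbp4 (2.11 ± 0.212), and 4-fold for Gbp7 (2.00 ± 0.194). The lowest values were 3.47-fold for Gbp3 (1.79 ± 0.311, edgeR adjusted p = 0.0024) and 2.65-fold for Gbp9 (1.41 ± 0.168, edgeR adjusted p = 0.000211). The estimates thus spanned 1.41 to 3.62 on the log2 scale, and Gbp2 and Gbp8, the pair that missed the threshold after late depletion, had the greatest estimates here. Without ΔLTreg mouse 2, the estimates of Gbp2, Gbp8 and Gbp10 were 4.21, 4.10 and 3.51.

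ΔTreg and ΔETreg skin differed in the doses on P10 and P12 and in age. All 9 members were higher in ΔTreg skin, against 13.2% of all genes, with a median of 4.32 on the log2 scale and a range from 2.31 ± 0.177 for Gbp9 to 5.66 ± 0.469 for Gbp8. The 2-dose groups could be compared as well, again with a difference in age. All 9 members were higher in ΔLTreg than in ΔETreg skin, against 3.12% of all genes, with a median of 1.53 on the log2 scale. Groups did not overlap for any member, as for 13.7% of all genes. The adjusted p was lowest for Gbp5 (log2 1.66 ± 0.225, edgeR adjusted p = 0.00235) and Gbp9 (0.90 ± 0.178, edgeR adjusted p = 0.0156). It was near the threshold for Gbp2 (1.53 ± 0.393, edgeR adjusted p = 0.0437), Gbp8 (2.23 ± 0.577, edgeR adjusted p = 0.0454) and Gbp3 (1.35 ± 0.335, edgeR adjusted p = 0.0392). Left-out libraries weighed on this count: 1 member passed without ΔETreg mouse 2, 2 without ΔETreg mouse 1, and 5 without ΔETreg mouse 3 or without ΔLTreg mouse 2. Without ΔLTreg mouse 2, the log2 differences of Gbp2, Gbp8 and Gbp10 fell to 0.94, 1.55 and 1.84. With edgeR fitted to these 2 groups only, 3 members passed (Gbp3, Gbp5 and Gbp9). Shares of all genes passing under these settings are not given here. A loss of calls among the members thus cannot be told apart from a loss among all genes.

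The make-up of the family also differed between groups. To compare genes, CPM were divided by the kilobases of exon that a gene shares with no other gene. On this scale Gbp2 was the most abundant member in every library, at 4.79 and 2.35 CPM per kb in control and 117, 133 and 90.3 CPM per kb in ΔTreg mice. Its share of the summed CPM per kb of the 9 members was 36.8% to 38.8% in control, 26.9% to 29.5% in ΔETreg, 26.7% to 38.5% in ΔLTreg and 56.2% to 59% in ΔTreg mice. The ΔTreg mice therefore lay apart from all others, and the ΔETreg mice below both controls. Gbp7, the next by share in several libraries, held 16% to 20.2% in control and 8.28% to 9.58% in ΔTreg mice. Gbp9 went from 11.5% to 15.1% in control to 3.47% to 3.93% in ΔTreg mice although its own level rose. Gbp4 held 5.04% to 5.96% in control, 9.5% to 12.9% in ΔETreg, 7.14% to 12.7% in ΔLTreg and 5.8% to 6.17% in ΔTreg mice. Its share was thus higher in all 6 mice given 2 doses than in either control or in any mouse given 4. Gbp3 held 14.1% to 21.8% in control and 9.29% to 10% in ΔTreg mice.

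**Figure D4:**
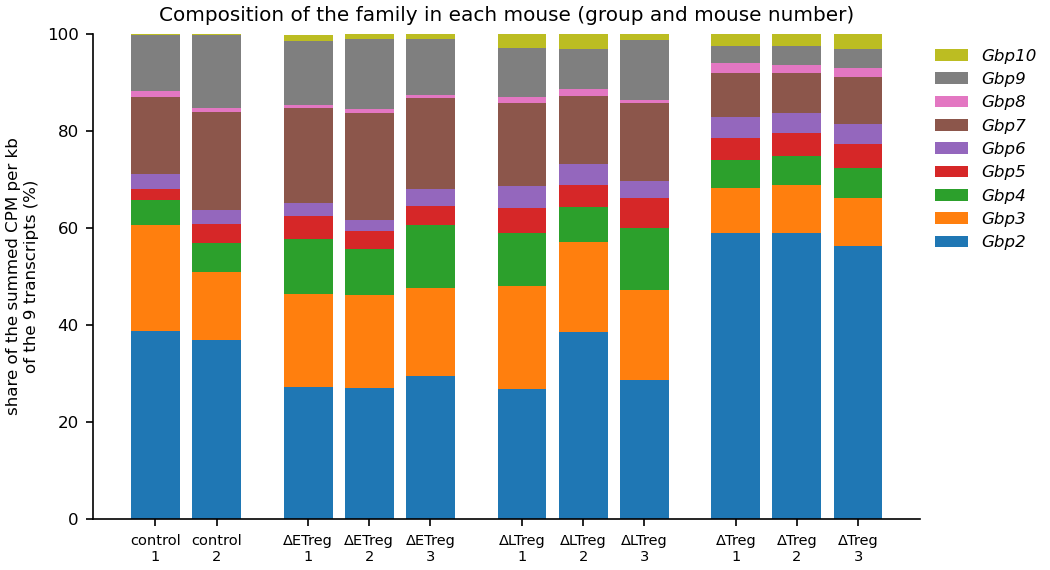
Share (%) of each GBP transcript in the summed CPM per kb of the 9 transcripts, as 1 stacked bar for each mouse. Gbp2 (lowest segment) takes 56.2% to 59% in the 3 ΔTreg mice and at most 38.8% in the other 8 mice.

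The same shift can be read within each library without gene length, as a ratio of CPM. The log2 ratio of Gbp2 to Gbp9 was 0.71 and 0.24 in control, between −0.15 and 0.31 in ΔETreg mice, 0.36, 1.19 and 0.16 in ΔLTreg mice, and 3.05, 2.89 and 2.80 in ΔTreg mice. The log2 ratio of Gbp4 to Gbp2 was −1.37 and −1.05 in control, 0.34, 0.08 and 0.38 in ΔETreg mice, 0.28, −0.86 and 0.40 in ΔLTreg mice, and −1.77, −1.74 and −1.61 in ΔTreg mice. Gbp4 was thus above Gbp2 in CPM in all 3 ΔETreg mice and in 2 of 3 ΔLTreg mice, and below it in both controls and all ΔTreg mice. These ratios were chosen after the levels had been seen and are given without a test.

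Within a group, mice tended to be high or low for the whole family. Control mouse 1, a female, was the higher of the controls for 9 of 9 members. ΔLTreg mouse 2, a female, was the highest of its group for 9 of 9 members, and ΔLTreg mouse 3, a male, the lowest for 8. In the ΔTreg group, mouse 2, a female, was the highest for 8 members and mouse 3, a male, the lowest for 9. In the ΔETreg group this order did not follow sex, since a male, mouse 3, was the highest for 7 members and the other male, mouse 2, the lowest for 8. With sex as a covariate the counts of members called were 0 for ΔETreg, 7 for ΔLTreg and 9 for ΔTreg against control, and 7 rather than 9 for ΔLTreg against ΔETreg. The share of all genes called with this covariate is not given here. Across the 11 libraries the 36 pairs of members had Pearson correlations of log2 CPM from 0.918 (Gbp4 with Gbp8) to 0.994, with a median of 0.978. The libraries share the group differences, so these values describe the groups as much as the genes.

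Other GBP genes of the table were almost silent outside ΔTreg skin. Gbp2b, between Gbp3 and Gbp2 on chromosome 3, read 0.105 and 0 CPM in control, 0 in each ΔETreg mouse and 2.4, 5.14 and 4.11 CPM in ΔTreg mice. Its pooled counts were 362 in ΔTreg against 3 in control, a ratio of 72.5 with a counting interval from 24.6 to 353 (edgeR adjusted p = 0.000687). Against ΔETreg, where no read was found, it was at least 111-fold higher, counted against a floor of 3 counts over the group. Gbp11, the outermost chromosome 5 gene, had 350 counts in ΔTreg against 2 in control, a ratio of 105 with a counting interval from 28.9 to 871 (edgeR adjusted p = 0.00103). Neither passed between ΔLTreg and control, and the pseudogene Gbp2-ps had 0 counts in all 11 libraries.

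Genes with the most similar pattern were then sought. Among 13888 genes with a mean of at least 50 counts, Pearson's r with the mean log2 CPM of the members across the 11 libraries was 0.999 for Igtp, 0.997 for Ifi47, 0.995 for Irgm2 and for Irgm1, 0.993 for Gm12250 and 0.989 for Iigp1, all of them immunity-related GTPases. Nlrc5, the activator of MHC class I genes, followed at 0.991, and H2-K1, an MHC class I gene, at 0.989. Tbk1, a kinase of interferon induction, and AW112010, both at 0.988, completed the 10. A high correlation did not need a large change, since the log2 fold change between ΔTreg and control was 4.73 for Igtp and 0.47 for Tbk1. When the groups were left out in turn, 5 to 8 of the 10 genes were again among the 10 highest.

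Upstream of the family, transcripts of the interferon system were examined by role. Of 21 interferon genes, 1 was detected well enough for testing, namely Ifng. Ifng, the gene of interferon-γ, had 3 and 0 counts in the controls, 3, 0 and 0 counts in ΔETreg mice and 1, 4 and 0 counts in ΔLTreg mice, whereas ΔTreg mice had 54, 82 and 57 counts. It was thus at or near the floor in 8 mice and present in all 3 ΔTreg mice, a ratio to control of 38.6 with a counting interval from 13 to 189 (edgeR adjusted p = 0.000769). In ΔLTreg skin, where 7 GBPs had risen, the ratio of Ifng to control was 0.983 with an interval from 0.191 to 6.33, so a change was not detectable at this depth. No type I or type III interferon gene exceeded 4 counts in any library, which leaves their transcripts below what these libraries can compare.

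Of 6 interferon receptor genes, 3 were higher in ΔTreg than in control skin, namely Ifngr1 (log2 0.76 ± 0.087), Ifnar2 (0.60 ± 0.118) and Ifngr2 (0.38 ± 0.0578), and 0 were in ΔLTreg skin. Of 12 JAK, STAT and IRF genes examined, 10 were higher in ΔTreg skin, with a median log2 fold change of 1.30. Of all genes tested, 12.1% were higher in ΔTreg and 1.86% in ΔLTreg skin than in control. Irf1, an interferon-induced transcription factor and a direct activator of GBP genes, stood at 13.6 and 10.9 CPM in control and 15 to 19.1 CPM in ΔETreg mice. It read 22.3, 37 and 19.5 CPM in ΔLTreg and 137, 145 and 110 CPM in ΔTreg mice, so that its order across the DT groups was that of the GBPs. Irf1 rose by 3.41 ± 0.267 on the log2 scale in ΔTreg (edgeR adjusted p = 1.24e-05) and by 1.09 ± 0.252 in ΔLTreg skin (edgeR adjusted p = 0.0365), and was the 1 gene of this list that passed in ΔLTreg skin. Batf2, a partner of IRF1, had the greatest estimate of the list in ΔTreg skin (4.77 ± 0.482), and Irf3 and Tyk2 did not pass.

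Inhibitors of the pathway rose as well. The counts that follow stand against 12.1% of all genes higher in ΔTreg and 1.86% in ΔLTreg skin than in control. Of 7, 5 were higher in ΔTreg than in control skin, among them Usp18, which blocks the type I receptor (log2 2.62 ± 0.335), and Socs1, which blocks JAK kinases (2.10 ± 0.188), with Socs3, Cish and Ptpn6 from 0.63 to 1.41, and 0 were in ΔLTreg skin. Of 10 genes of the inflammasomes with which GBPs work, 8 were higher in ΔTreg skin. The greatest estimates were those of Gm12250, the gene of the GTPase Irgb10 that acts with GBPs on bacteria (5.09 ± 0.538), and Casp4, the gene of the lipopolysaccharide sensor caspase-11 (3.21 ± 0.265, edgeR adjusted p = 1.58e-05). Casp4 was also the 1 gene of this list that passed in ΔLTreg skin (1.13 ± 0.275, edgeR adjusted p = 0.0435). Casp1, Nlrp3, Il1b, Gsdmd, Aim2 and Pycard gained between 0.43 and 2.20 in ΔTreg skin, and Il18 and Nlrc4 did not pass. Of 6 enzymes of the prenylation that attaches the lipid tail of Gbp2 and Gbp5, none was higher and Fnta fell by 0.19 on the log2 scale. Of 10 genes of the autophagy conjugation machinery, which places GBPs on vacuoles, 2 were higher, against 12.1% of all genes. These were Atg16l1 (0.27 ± 0.0559) and Gabarapl1 (0.19 ± 0.0476). In ΔETreg skin no gene of any of these lists passed against control.

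**Figure D5:**
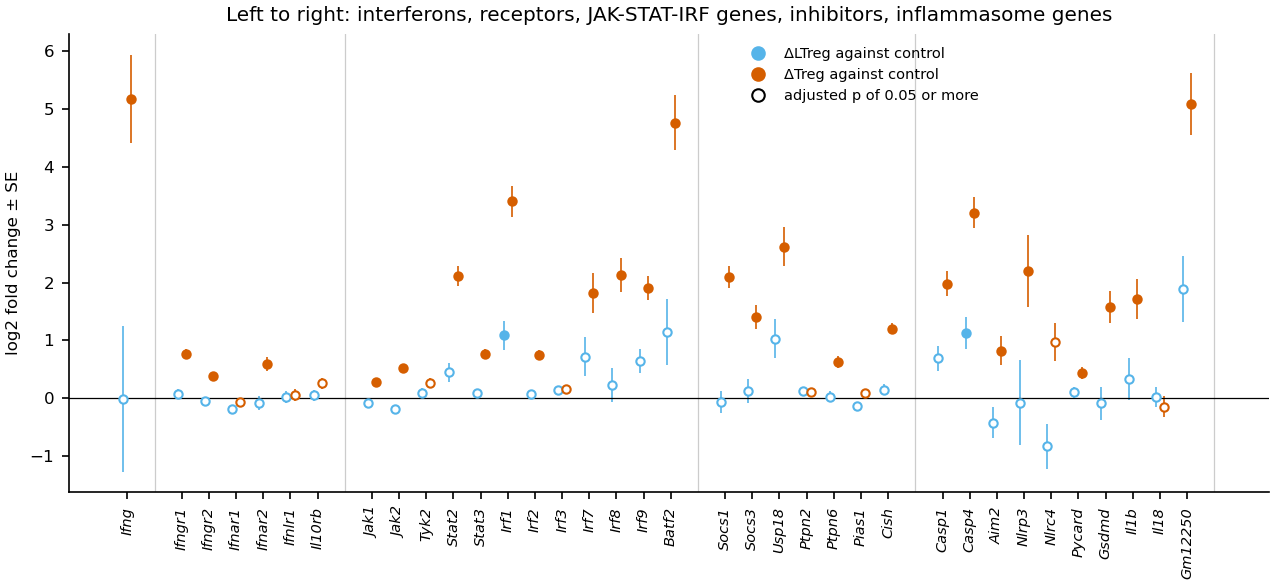
Log2 fold change against control, with bars for 1 SE, of the tested genes of 5 lists in ΔLTreg (blue) and ΔTreg (orange) skin, with open symbols for an adjusted p of 0.05 or more. Irf1 and Casp4 are filled in both groups. Ifng is filled for ΔTreg skin and open for ΔLTreg skin, where its few reads did not allow a change to be detected.

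Markers of leucocytes moved with the GBPs in ΔTreg skin, where 12.1% of all genes were higher than in control. T cell markers summed to 15.5 to 19.2 CPM in control, 16.4 to 19.1 in ΔETreg, 19.5 to 24.5 in ΔLTreg and 65.7 to 83.5 CPM in ΔTreg mice, and 10 of 10 were higher in ΔTreg than in control skin. NK and cytotoxic markers summed to 3.36 to 3.39, 2.54 to 3.16, 4.2 to 6.04 and 59.8 to 67.2 CPM in the same order of groups, and 8 of 8 were higher in ΔTreg skin. The greatest estimates there were Gzmb (log2 8.75 ± 0.426) and Gzma (8.17 ± 0.509), which encode granzymes of killer cells. Neutrophil markers summed to 13.4 to 14.3, 9.04 to 11.8, 17.1 to 18.4 and 33.9 to 42.4 CPM, with all 6 tested of 8 higher in ΔTreg skin. Macrophage and monocyte markers summed to 334 to 404, 292 to 352, 247 to 389 and 553 to 718 CPM, with 3 of 10 higher (Mrc1, Adgre1 and Cd68). Among dendritic and Langerhans cell markers, whose sums were 14.8 to 14.9, 12.5 to 15.6, 12.9 to 15.8 and 17.4 to 23.2 CPM, Itgax and Ccr7 were higher and Cd207 was lower. No marker of these lists was at 0 in every library. In ΔLTreg skin, 0 of 10 T cell, 0 of 8 NK and cytotoxic and 0 of 10 macrophage markers passed against control. S100a9 alone of the neutrophil markers did (0.65 ± 0.162). Of all genes 1.86% were higher in that comparison, and 7 of 9 GBPs had passed. Estimates were above 0 for 8 of 10 T cell, 7 of 8 NK and cytotoxic and 2 of 10 macrophage markers. A lack of calls in these lists is therefore not a lack of change. The part of these cells in the GBP levels was not tested.

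Markers of resident cells differed too. Of all genes, 12.1% were higher in ΔTreg and 1.86% in ΔLTreg skin than in control. The shares of all genes that were lower are not given here. Melanocyte markers, genes of pigment synthesis, summed to 1170 to 1390 CPM in control, 789 to 1080 in ΔETreg, 1050 to 1230 in ΔLTreg and 702 to 732 CPM in ΔTreg mice. In ΔTreg skin 6 of 6 were lower than in control (median log2 fold change −0.91) and 6 of 6 lower than in ΔLTreg skin (median −0.70). In both comparisons they moved opposite to the GBPs. Against control, 0 of 6 passed in ΔLTreg skin (median −0.15) and 0 of 6 in ΔETreg skin (median −0.44). At an unadjusted edgeR p under 0.05, 6 of 6 were lower in ΔETreg and 0 of 6 in ΔLTreg skin. The shares of all genes lower at that level are not given here, so these counts do not show that the groups differ. Between ΔLTreg and ΔETreg skin 0 of 6 passed, and all 6 estimates were above 0 (median 0.285), as were those of the GBPs. Fibroblast markers summed to 18200 to 21600 CPM in control, 8430 to 18400 CPM in ΔLTreg and 9940 to 11300 CPM in ΔTreg mice. Of 8, 4 were lower in ΔTreg skin (Col1a1, Col1a2, Pdgfrb and Lum) and 2 in ΔLTreg skin (Pdgfra and Pdgfrb). Keratinocyte markers summed to 13500 to 14800 CPM in control, 12600 to 13500 CPM in ΔLTreg and 13000 to 13400 CPM in ΔTreg mice. Of 8, Krt14 and Dsg3 were higher and Krt1 and Krt10 lower in ΔTreg skin, with Dsg3 higher and Krt1 lower in ΔLTreg skin. Endothelial markers summed to 277 to 284 CPM in control, 307 to 310 CPM in ΔLTreg and 289 to 323 CPM in ΔTreg mice. Of 8, Pecam1 and Vwf were higher and Cdh5 and Kdr lower in ΔTreg skin, with Pecam1 alone passing in ΔLTreg skin. Skeletal muscle markers summed to 1480 to 1570 CPM in control, 1880 to 7060 CPM in ΔLTreg and 1800 to 3530 CPM in ΔTreg mice, with Myh4 (5.53 ± 0.758) and Actn3 (1.93 ± 0.479) of 7 higher in ΔLTreg skin and Myh4 (3.46 ± 0.725) in ΔTreg skin. None of 6 adipocyte markers and neither of the 2 tested B cell markers passed in ΔTreg or ΔLTreg skin against control. Their part in the GBP levels was not tested either.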

How the data were processed

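Whole-skin bulk RNA-sequencing of 11 Foxp3-DTR mice was analysed, with groups taken from the treatment labels (PBS, EarlyDT, LateDT and FullDT). Libraries of a group are separate mice, and all were treated here as 1 batch. Doses and harvest days are those of the study's methods. Replicate pairs differed beyond counting error in each group and each library was counted once.

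The authors deposited raw counts for 49315 genes without normalization. They trimmed reads with Trimmomatic 0.36, aligned them to GRCm38 with STAR 2.5.2b and counted uniquely mapped exonic reads with featureCounts (Subread 1.5.2). Strand setting and annotation release are not given in the sources used here. The authors' own tests used DESeq2. Gene bounds and exon lengths came from GENCODE M21, in which 49056 of the gene IDs were found.

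From the counts, low genes were removed (filterByExpr of edgeR, by group) and 18375 remained. One model with a mean for each group was fitted to all 11 libraries with edgeR 4.0.16 (R 4.3.3, TMM scaling, quasi-likelihood test), and 6 contrasts were tested with Benjamini-Hochberg adjustment and a threshold of 0.05. SEs were obtained by dividing each log2 fold change by the root of its F statistic. Correlations used log2 CPM with a prior count of 2. The procedure was also run on simulated counts with known changes, and how many of these it recovered is not given here. At 23377571 to 34159435 counts per library, a floor of 3 counts and 95% intervals for ratios of pooled counts (exact, conditional on the total) cover counting error only, since reads carry no molecular identifiers. Alternatives were DESeq2 1.42.0, the libraries of 2 groups only, other scalings and filters, sex as a covariate, and each library left out.

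Members and gene lists were chosen with earlier results of these data known. All members, other GBP genes, genes of the interferon and inflammasome lists, the 3 genes with the smallest p of each other list, Foxp3 and the 10 most alike genes could be named. One gene of the signalling list is not reported here. Actn3, Lum, Pdgfra, Krt10 and Vwf are exceptions, picked once their values were known.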

Additional observations from a re-analysis of the deposited data

Results flagged for a closer look

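The effects of late and early depletion against the same controls differed for each of the 9 members. The difference of the 2 effects is the contrast of ΔLTreg with ΔETreg skin, tested in the edgeR fit, with adjusted p-values from 0.00235 to 0.0454. Most of these calls depended on the processing. Only Gbp5 passed in all 13 alternatives of this contrast, while Gbp2 passed in 7 of 13 and Gbp8 in 5 of 12. It was 1.53 on the log2 scale for Gbp2, 1.35 for Gbp3, 1.03 for Gbp4 and 1.66 for Gbp5, each higher in ΔLTreg skin. It was 1.80 for Gbp6, 0.93 for Gbp7, 2.23 for Gbp8, 0.90 for Gbp9 and 2.44 for Gbp10. The groups were harvested on P13 and P9, so age and the timing of DT cannot be told apart in these values. Groups of 2 or 3 mice were too small for a search for single outlying samples.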

How the results depend on the processing

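All 9 members tested were higher in ΔTreg skin than in control, ΔLTreg and ΔETreg skin under every alternative run, with 7 of 7 left to test where at least 10 counts in every library were asked for, which removed Gbp8 and Gbp10. In ΔETreg against control, 0 members passed, but 2 did with no filter (Gbp4 and Gbp5) and 1 with DESeq2. In ΔLTreg against control, 7 passed, 2 with edgeR on the 2 groups only, and 2 to 8 with a library left out. In ΔLTreg against ΔETreg, 9 passed, 3 with edgeR on the 2 groups only, and 1 to 9 with a library left out. Counts under alternatives stand in this section without the share of all genes passing under the same setting. Of the 10 genes most like the members, 6 were again in the 10 without the control group, 5 without the ΔLTreg group and 6 without the ΔTreg group. The direction of single members reversed in ΔETreg against control alone, when libraries were left out: Gbp2 ran from −0.59 to 0.43, Gbp3 from −0.34 to 1.24, Gbp6 from −0.19 to 0.79 and Gbp8 from −0.97 to 0.52 on the log2 scale, with the turns in Gbp2 and Gbp8 without control mouse 1, in Gbp3 and Gbp6 without control mouse 2, and in Gbp6 (−0.08) also without ΔETreg mouse 3. Over all comparisons, 600 values of single members under alternatives kept direction and side of the threshold, 49 lost the call and 6 gained it. The cause of these shifts was not tested. No paired analysis was possible because each library came from a separate mouse and the labels link no mice between groups. With 2 control mice, each comparison with control rests on a spread shared with the other groups, and transcripts near 3 counts, such as Gbp10 and Ifng in control, limit their own ratios.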
